A study of Zea mays with 12 samples.

Results

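The early response to imbibition in maize seeds was examined here as far as the wild type, KN5585, shared it with the *ereb92* mutant, as the average difference between 6 and 0 hours after imbibition (HAI) over all 12 libraries of the series. A gene belonged to it when an additive model with a term for genotype and a term for time called the time term (edgeR adjusted p under 0.05 and a change of at least 2-fold, 6 libraries against 6) and when the estimates within KN5585 and within *ereb92* had the same sign. Of 55529 genes in the table, 25567 had enough counts to be tested, and 183 of these met the rule: 176 stood higher at 6 HAI and 7 stood lower. The additive model alone called 178 up-regulated genes, 0.696% of the genes tested, and 7 down-regulated genes, 0.0274%. The 176 shared rises were 0.688% of the genes tested, the share to set beside the counts of gene lists and families below.

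The study asked how the transcription factor ZmEREB92 acts in germination, and profiled polyadenylated RNA of whole seeds. There were 4 groups of 3 libraries: KN5585 at 0 HAI, KN5585 at 6 HAI, *ereb92* at 0 HAI and *ereb92* at 6 HAI. KN5585 is the maize line that was transformed, and *ereb92* is 1 edited line in that background, *ereb92-6*, which carries a CRISPR-Cas9 knockout of *ZmEREB92*. Seeds of both were surface-sterilized and imbibed on wet filter paper in the dark, and the methods call the 3 libraries of a group biological replicates. A whole maize seed holds embryo, starchy endosperm, aleurone and the maternal seed coat, so that fewer cells of a type and less RNA per cell cannot be told apart in these data.

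A dry seed stores messenger RNA made during maturation, and water uptake restarts respiration, translation and new transcription within hours. Growth of the young root out of the seed is driven by turgor and by loosening of cell walls. Abscisic acid (ABA) keeps seeds dormant and gibberellin favours germination, and wall synthesis, wall loosening, calcium signals and kinases are known to take part in cell expansion.

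The libraries held 12771663 to 15383586 counts and the number of genes with at least 1 count was 23104 to 32080. The lowest number was that of KN5585 replicate 1 at 6 HAI, where the other libraries had 27689 or more, and mitochondrial features took 1.67% of its counts. No difference between the times in total counts, genes detected, the share of the 20 most abundant genes, the TMM factor or the mitochondrial share passed a two-sided exact permutation test within genotypes, with p of 0.075 to 0.47, where the smallest p possible was 0.005. Embryo marker genes summed to 43593 to 164680 FPKM (fragments scaled to gene length and library size) per library with none of 10 at 0 in all libraries, starchy endosperm markers to 64.1 to 997.7 FPKM with none of 32 at 0, aleurone markers to 531.8 to 11475 FPKM with none of 9 at 0, and green tissue markers to 11.3 to 34.3 FPKM with 3 of 17 at 0. *ZmEREB92* (Zm00001d000339) itself stood at 12.8, 2.33 and 2.95 FPKM in KN5585 at 0 HAI, 19.1, 6.45 and 46.6 FPKM in KN5585 at 6 HAI, 10.6, 1.80 and 7.39 FPKM in *ereb92* at 0 HAI and 409.9, 273.4 and 87.5 FPKM in *ereb92* at 6 HAI. The file places this identifier on an unanchored contig of B73 RefGen_v4, outside the 10 chromosomes, and its link to *ZmEREB92* rests on the deposited name AP2-EREBP-transcription factor 92 and on the study's own gene lists. Reads assigned to it were thus present in the mutant, and a transcript level does not check an edit of the sequence. The additive estimate for *ZmEREB92* was 3.66 ± 0.85 (log2 fold change ± SE) with an edgeR adjusted p of 0.069, so it was not a member. *ZmEF1a* (Zm00001d009870), a reference gene, had a log2 fold change of 0.06 ± 0.13.

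The up-regulated genes rose in both genotypes by estimate, but not equally. Their median log2 fold change was 2.77 in the additive model, 1.93 in KN5585 and 3.46 in *ereb92*, where the median of all genes tested was -0.03, -0.04 and -0.02, respectively. The estimate was the larger in *ereb92* for 163 of the 176 and in KN5585 for 13, and 149 were at least 2-fold up in each genotype, which 3.36% of all genes tested were. Since the members were chosen on this contrast, these values describe them and test nothing. Both genotypes share the additive estimate, and across all genes tested, which are not independent replicates, the changes in the 2 genotypes had a Pearson r of 0.22.

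**Figure D1:**
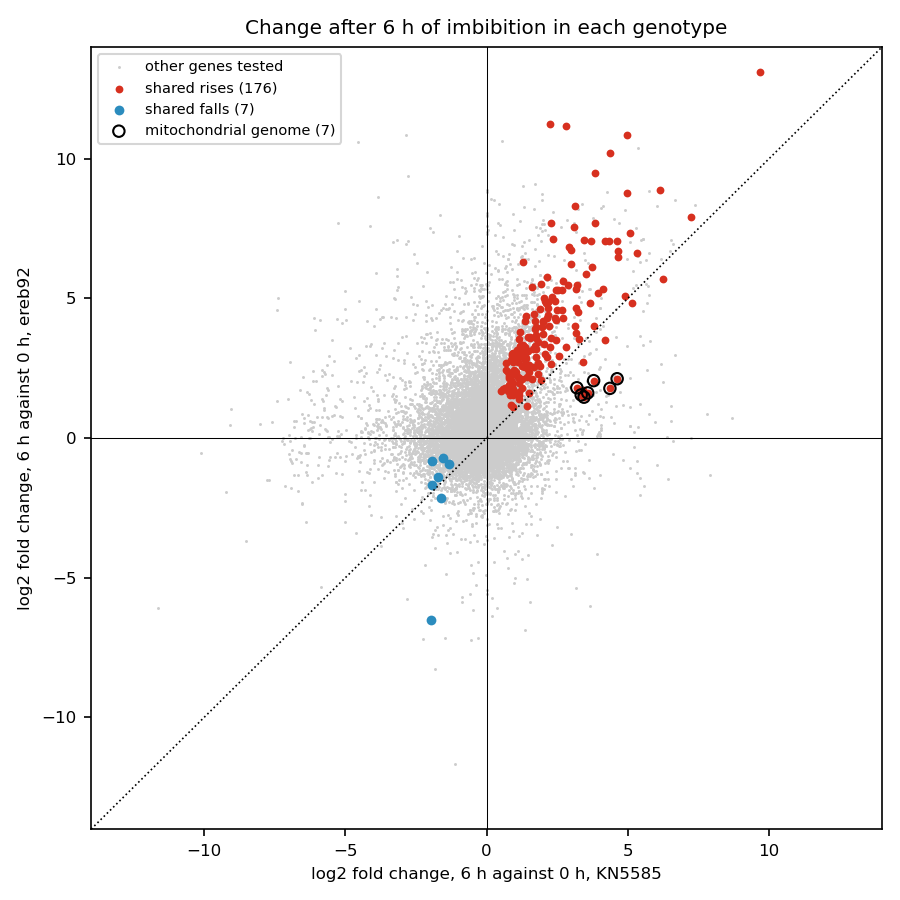
Log2 fold change at 6 against 0 HAI in KN5585 (horizontal axis) and in *ereb92* (vertical axis), 1 point per gene tested, with the 176 shared rises in red, the 7 shared falls in blue and the 7 mitochondrial genome genes circled. Most rises lie above the dotted line of equal change, and the circled genes lie below it.

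No gene passed the test in KN5585 and in *ereb92* each on its own, in either direction, by edgeR. At an unadjusted p under 0.05, 247 genes rose and 15 fell at least 2-fold in both, and DESeq2, a second count test, called 51 rises and no fall in both. Of the 176 up-regulated members, 154 passed the adjusted edgeR test within *ereb92*, which 3.11% of all genes did as rises, and none did within KN5585, where no gene passed in either direction and 171 members had an unadjusted p under 0.05. The members were chosen on the time term over these same libraries, so their counts within a genotype describe them and test nothing. The share of all genes at an unadjusted p within KN5585 is not given here. Replicates of the same number deviated together in *ereb92* but not in KN5585, and with these pairs as a block 123 of the rises and 1 of the falls passed within *ereb92*, and the additive model called 4 shared rises and no fall. The shared response therefore rests on the average over both genotypes. No member passed the test of a difference between the genotypes in the change (interaction, edgeR, smallest adjusted p = 0.0694), where 8 of all genes tested did (0.0313%). An unadjusted interaction p under 0.05 was found for 89 rises and 2 falls, without a share of all genes to set beside them. DESeq2 called an interaction for 153 genes of its own, larger set of 806 shared rises and 65 shared falls.

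The number of members depended on single libraries. Without KN5585 replicate 1 at 6 HAI, the library with the fewest genes detected, 579 genes rose and 14 fell, and 175 of the 176 rises and 6 of the 7 falls were among them. Leaving out KN5585 replicate 2 at 6 HAI gave 271 rises and 3 falls, and leaving out KN5585 replicate 3 at 6 HAI gave 40 rises and 1 fall. Without KN5585 replicate 1, 2 or 3 at 0 HAI there were 221, 143 and 43 rises with 11, 3 and 1 falls. Without *ereb92* replicate 1, 2 or 3 at 0 HAI there were 9, 17 and 14 rises with 1 fall each, and without *ereb92* replicate 1, 2 or 3 at 6 HAI there were 85, 30 and 114 rises with 2, 1 and 22 falls. All 183 members kept their sign in each of these 12 fits, and 9 were called in all of them. Each fit reused libraries on which the members had been chosen, so the kept signs describe them and test nothing.

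**Figure D2:**
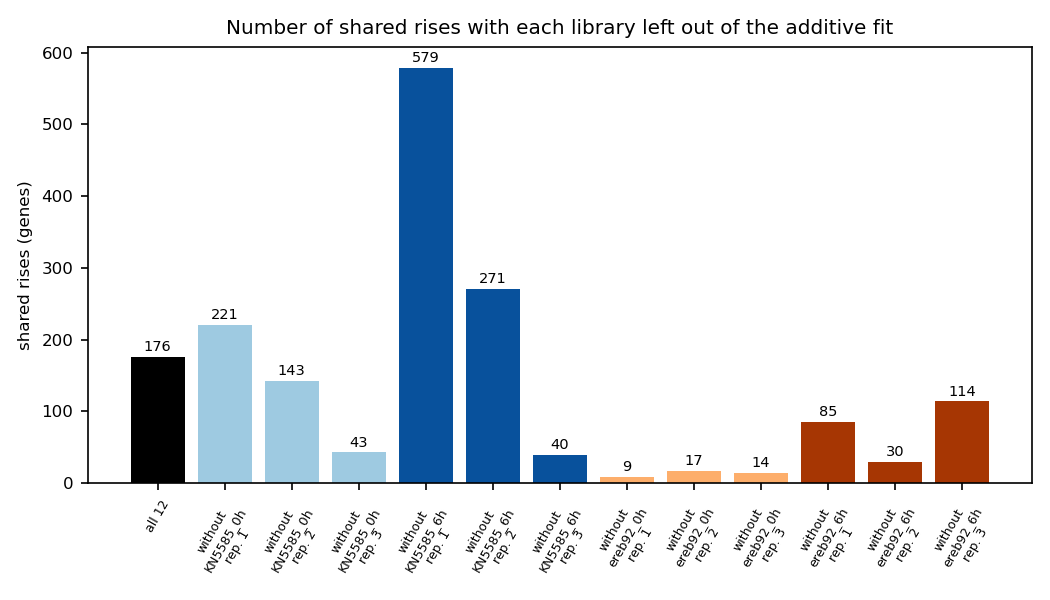
Number of shared rises (vertical axis, genes) in the additive model with all 12 libraries (black) and with each library left out in turn, coloured by its group. The count runs from 9 without *ereb92* replicate 1 at 0 HAI to 579 without KN5585 replicate 1 at 6 HAI.

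Together the 176 rises took 0.151 to 0.205% of the counts in KN5585 at 0 HAI and 0.222 to 0.233% in *ereb92* at 0 HAI. At 6 HAI they took 0.417%, 0.396% and 0.823% in KN5585 and 3.33%, 2.53% and 1.78% in *ereb92*. The groups at 6 HAI did not overlap with those at 0 HAI, nor with each other. KN5585 replicate 3 was the highest of its group for 127 of the 176 rises (72.2%, against 36.2% of all genes tested), and *ereb92* replicate 3 the lowest of its group for 127 as well, against 38% of all genes. Every *ereb92* library at 6 HAI lay above every KN5585 library at 6 HAI for 138 rises, which 15.5% of all genes tested showed, and at 0 HAI this was so for 34 rises, against 8.51%. The rises were chosen on these same libraries, and 154 of them passed within *ereb92* but none within KN5585. The shares of this paragraph therefore describe the members and test nothing.

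**Figure D3:**
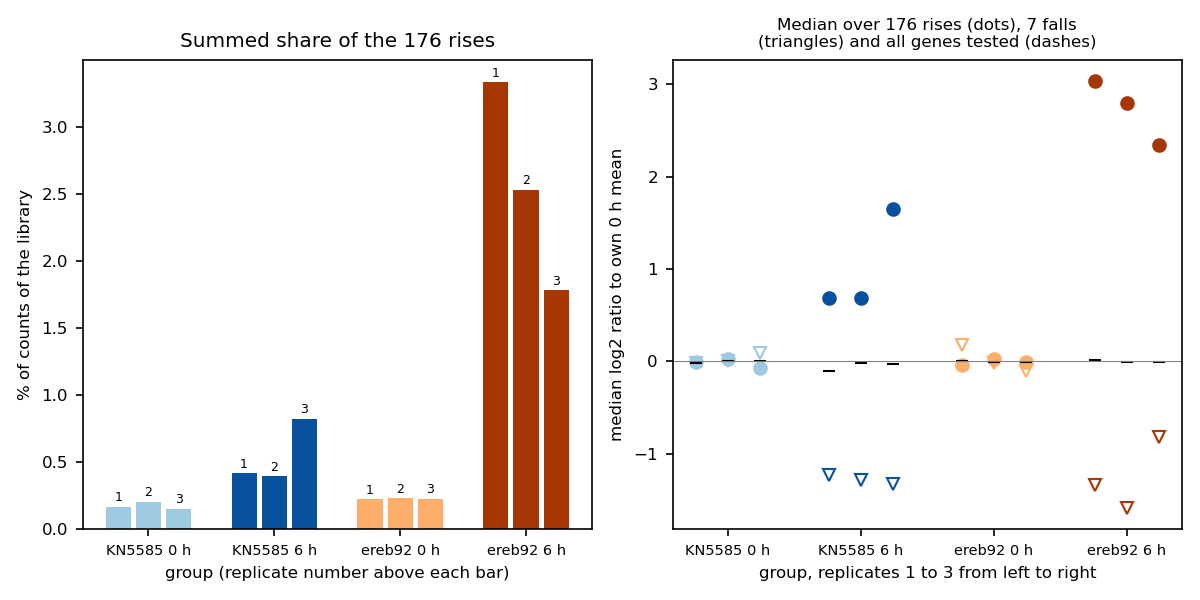
Left, the summed share of the 176 rises in the counts of each library (percent, bars numbered by replicate). Right, the median over the rises (dots), the 7 falls (triangles) and all genes tested (dashes) of the log2 ratio of a library to the 0 HAI mean of its own genotype: the rises reach 0.69, 0.69 and 1.65 in KN5585 at 6 HAI and 3.03, 2.79 and 2.34 in *ereb92*.

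Among the rises, 61 had no overlap between the 6 libraries at 6 HAI and the 6 at 0 HAI, which 0.595% of all genes tested showed. The rises were called from this contrast, so nothing is read from that share. By annotation 165 of the 176 are protein-coding genes, 7 of them in the mitochondrial genome, 10 are transcripts assembled by the submitters and 1 is a long intergenic non-coding RNA. Their median level was 2.46 FPKM at 0 HAI and 20.1 FPKM at 6 HAI, where all genes tested had 3.53 and 3.97 FPKM. Most rises had reads before imbibition: only 9 of the 176 had at most 3 counts in every library at 0 HAI, and 1 of these had none. That gene, Zm00001d040398, annotated as a protein kinase superfamily protein, was at 0 in all libraries at 0 HAI and in KN5585 replicates 1 and 2 at 6 HAI, and reached 0.399 FPKM in KN5585 replicate 3 and 6.15, 12.6 and 3.42 FPKM in *ereb92* at 6 HAI, which made it at least 37.8-fold higher at 6 HAI against a floor of 3 counts in each library. In 6 rises the mean of the KN5585 libraries at 6 HAI was under 10 counts, so their direction in KN5585 rests on few reads. The one rise with at most 3 counts in all 6 KN5585 libraries was microtubule-associated protein 65-5 (Zm00001d038174).

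The strongest rise belonged to a formin, a protein that nucleates and elongates actin filaments. Formin-like protein 18 (Zm00001d034221, chromosome 1) was at 0 in all KN5585 libraries at 0 HAI and at 0.0453, 0 and 0 FPKM in *ereb92*. At 6 HAI it stood at 0.651, 0.537 and 15.7 FPKM in KN5585 and at 311.8, 154.0 and 150.5 FPKM in *ereb92*. All 6 libraries at 6 HAI lay above all 6 at 0 HAI, and KN5585 replicate 3 stood far above the other KN5585 libraries. The additive log2 fold change was 12.79 ± 1.34 (edgeR adjusted p = 0.00339), an estimate that depends on the prior count because the gene was near 0 before imbibition.

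Another pair of genes with the same annotation rose, Zm00001d013163 with a log2 fold change of 5.87 ± 0.86 and Zm00001d047055 with 5.81 ± 1.2, and so did formin homologue 4 (Zm00001d017983) with 2.63 ± 0.37. In Zm00001d047055 the KN5585 libraries at 6 HAI were at 0.0497, 0.193 and 10.5 FPKM, so that its rise in KN5585 came from replicate 3 alone. These were 4 rises among 27 formin genes tested, whose median log2 fold change was 0.56 with 22 estimates above 0. The wider list of actin, formin, tubulin and motor genes had 5 rises among 262 genes and a median of -0.01, so the movement lay with these few genes rather than with the list.

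Several rises encode enzymes that build or modify the cell wall. All 3 tested genes annotated as probable galacturonosyltransferase-like 9, of a family placed in pectin and wall polysaccharide synthesis, rose. Zm00001d017984 stood at 1.68, 0.643 and 0.849 FPKM in KN5585 and 1.02, 1.78 and 1.32 FPKM in *ereb92* at 0 HAI. It reached 4.03, 2.98 and 8.77 FPKM in KN5585 and 38.1, 59.5 and 41.6 FPKM in *ereb92* at 6 HAI, with no overlap between the times. Its log2 fold change was 3.75 ± 0.55 (edgeR adjusted p = 0.0139), and those of Zm00001d044752 and Zm00001d052292 were 5.42 ± 0.97 and 2.49 ± 0.36. Among all 28 galacturonosyltransferase genes tested, 22 estimates were above 0 with a median of 0.36.

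In the cellulose synthase superfamily, which makes cellulose and related glucans at the plasma membrane and in the Golgi, 4 of 25 genes rose, and the median log2 fold change of the list was 0.55 (0.32 in KN5585 and 0.80 in *ereb92*). Cellulose synthase6 (Zm00001d034770) stood at 2.76, 3.17 and 2.60 FPKM in KN5585 and 3.15, 3.96 and 3.10 FPKM in *ereb92* at 0 HAI. At 6 HAI it stood at 5.69, 4.07 and 4.13 FPKM in KN5585 and at 29.8, 18.6 and 17.9 FPKM in *ereb92*. The times did not overlap, and the additive log2 fold change was 1.69 ± 0.34 (edgeR adjusted p = 0.0422). It was the member with the smallest adjusted interaction p, with estimates of 0.69 in KN5585 and 2.67 in *ereb92*. The putative cellulose synthase-like gene Zm00001d045557 rose by 1.56 ± 0.29, also without overlap. A pair of further putative cellulose synthase-like genes, Zm00001d049510 and Zm00001d024531, had estimates of 9.23 ± 0.71 and 8.70 ± 1.29, yet in KN5585 at 6 HAI they stood at only 0 to 0.0695 FPKM and 0 to 0.106 FPKM, against 7.07 to 13.7 FPKM and 3.45 to 6.67 FPKM in *ereb92*.

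Wall hydrolases and wall proteins were found as well. Endoglucanase 1 (Zm00001d017978), a hydrolase of the beta-1,4-glucan type, stood at 1.30 to 2.56 FPKM over the libraries at 0 HAI, at 6.69, 3.20 and 21.7 FPKM in KN5585 at 6 HAI and at 90.6, 63.5 and 55.5 FPKM in *ereb92* at 6 HAI. Its log2 fold change was 3.95 ± 0.62 (edgeR adjusted p = 0.0178), and Endoglucanase 11 (Zm00001d044744) rose as well, which made 2 of 11 endoglucanases tested. Xyloglucan endotransglucosylase/hydrolase protein 14 (Zm00001d009309), an enzyme that cuts and rejoins xyloglucan, rose with 8.71 ± 1.48 as the only one of 30 expansin and xyloglucan genes, and was at 0, 1.68 and 14.4 FPKM in KN5585 at 6 HAI against 379.3, 545.3 and 304.7 FPKM in *ereb92*. Polygalacturonase QRT3 (Zm00001d002342), a pectin hydrolase known in Arabidopsis from pollen separation, rose with 3.51 ± 0.74 at a low level of at most 3.92 FPKM. Together with the galacturonosyltransferase-like genes it made 4 rises among 69 pectin genes, whose median was 0.14.

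Fasciclin-like arabinogalactan protein 11 (Zm00001d039770), a wall glycoprotein, was detected in 1 of 6 libraries at 0 HAI, at 0.361 FPKM, and in every library at 6 HAI, at 0.818 to 4.37 FPKM in KN5585 and 0.474 to 2.49 FPKM in *ereb92*. Its levels in the genotypes at 6 HAI overlapped, unlike those of most rises. Peroxidase 55 (Zm00001d031635), of the secreted peroxidases that act on hydrogen peroxide and phenolics in the wall, stood at 1.59 to 3.60 FPKM over the libraries at 0 HAI. It stood at 14.6, 5.09 and 40.6 FPKM in KN5585 at 6 HAI and at 318.7, 220.0 and 155.0 FPKM in *ereb92* at 6 HAI, with a log2 fold change of 4.65 ± 0.72 (edgeR adjusted p = 0.0177). It was the only called gene among 41 peroxidases. Also up were roothair defective3 (Zm00001d028826), a COBRA-like protein of maize known for root hair growth, with 3.38 ± 0.58, hydroxyproline O-galactosyltransferase GALT4 (Zm00001d007764), which adds galactose to arabinogalactan proteins, with 2.82 ± 0.44, and leucine-rich repeat extensin-like protein 3 (Zm00001d037711) with 3.59 ± 0.65.

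**Figure D4:**
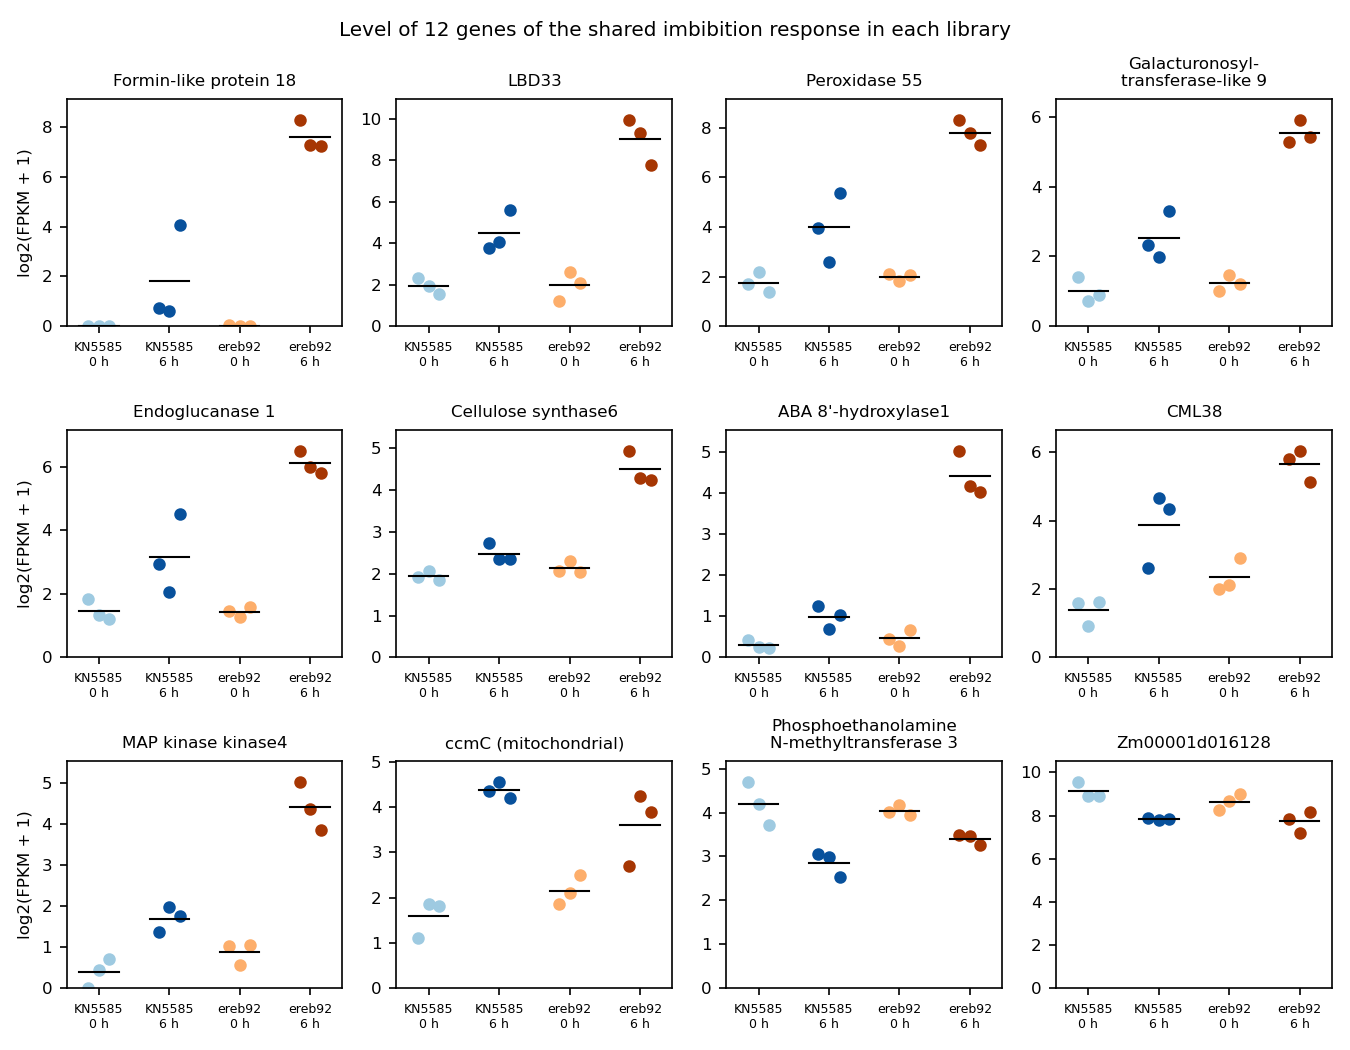
Level of 12 members in each library as log2(FPKM + 1), by genotype and time, with a dot per library in the order of replicates 1 to 3 and a line at the group mean. The first 9 panels rise in both genotypes with the larger rise in *ereb92*, ccmC has its larger rise in KN5585, and the last 2 panels show genes that fell in both.

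A few genes of the large calcium and kinase signalling families rose. Calcium-binding protein CML38 (Zm00001d042056), a calmodulin-like sensor, stood at 2.01, 0.892 and 2.09 FPKM in KN5585 and 3.0, 3.33 and 6.54 FPKM in *ereb92* at 0 HAI. At 6 HAI it stood at 5.11, 24.5 and 19.1 FPKM in KN5585 and 55.3, 65.3 and 34.1 FPKM in *ereb92*. Its change was about equal in the genotypes, 3.28 in KN5585 and 3.56 in *ereb92*, and the additive log2 fold change was 3.43 ± 0.42 (edgeR adjusted p = 0.00439). It was called in each of the 12 fits that left out a library.

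Calcium dependent protein kinase4 (Zm00001d026018) rose with 2.50 ± 0.40, calcium-dependent protein kinase 28 (Zm00001d015100) with 1.93 ± 0.31 and CBL-interacting serine/threonine-protein kinase 11 (Zm00001d022451) with 3.27 ± 0.64. These were 4 rises among 120 calcium sensors and kinases, whose median was 0.25. In the MAP kinase cascade, which relays signals through kinases that phosphorylate each other in turn, 3 of 54 genes rose: mitogen-activated protein kinase 20 (Zm00001d039141) with 2.09 ± 0.32, MAP kinase kinase4 (Zm00001d018326) with 3.75 ± 0.58 and a putative MAPKKK (Zm00001d038884) with 2.77 ± 0.44. MAP kinase kinase4 stood at 0 to 1.06 FPKM at 0 HAI, 1.59, 2.92 and 2.37 FPKM in KN5585 at 6 HAI and 31.7, 19.6 and 13.3 FPKM in *ereb92* at 6 HAI.

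Receptor-like kinases, which sense peptides and wall fragments at the cell surface, made up 10 rises among 312 genes with a median of 0.47 (0.13 in KN5585 and 0.85 in *ereb92*). MDIS1-interacting receptor like kinase 2 (Zm00001d014063) rose with 2.99 ± 0.36 (edgeR adjusted p = 0.00409) and was called in each of the 12 fits that left out a library. Phytosulfokine receptor 1 (Zm00001d001877), which binds a growth-promoting peptide in Arabidopsis, rose with 2.06 ± 0.34, receptor-like kinase TMK2 (Zm00001d033777) with 3.59 ± 0.60 and receptor-like protein kinase FERONIA (Zm00001d029047), a regulator of cell expansion in Arabidopsis, with 2.37 ± 0.46. FERONIA stood at 1.27 to 3.12 FPKM at 0 HAI, at 4.11, 3.50 and 6.41 FPKM in KN5585 at 6 HAI and at 42.0, 28.1 and 18.9 FPKM in *ereb92* at 6 HAI, with no overlap between the times. Respiratory burst oxidase3 (Zm00001d038762), an enzyme that makes superoxide outside the cell, rose with 1.68 ± 0.35 as 1 of 8 genes of its family.

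Pumps and transporters of the plasma membrane were among the rises as well. Proton-exporting ATPase4 (Zm00001d026490), which acidifies the wall space, stood at 1.78 to 3.47 FPKM at 0 HAI and at 4.95, 5.38 and 6.58 FPKM in KN5585 and 41.1, 20.1 and 14.4 FPKM in *ereb92* at 6 HAI, a log2 fold change of 2.04 ± 0.36. ABC transporter G family member 40 (Zm00001d044442), whose Arabidopsis counterpart imports ABA, stood at 0.939, 1.68 and 0.932 FPKM in KN5585 and 1.15, 2.53 and 1.51 FPKM in *ereb92* at 0 HAI. It reached 8.54, 4.42 and 10.8 FPKM in KN5585 and 21.6, 42.1 and 40 FPKM in *ereb92* at 6 HAI, with a log2 fold change of 3.52 ± 0.39 (edgeR adjusted p = 0.00398), and it was another of the 9 members called in each fit that left out a library.

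Hormone genes of the response included both removal and perception of ABA. Abscisic acid 8'-hydroxylase1 (Zm00001d017762), the enzyme that inactivates ABA, stood at 0.334, 0.186 and 0.163 FPKM in KN5585 and at 0.358, 0.211 and 0.585 FPKM in *ereb92* at 0 HAI. At 6 HAI it stood at 1.37, 0.612 and 1.06 FPKM in KN5585 and at 31.8, 17.0 and 15.2 FPKM in *ereb92*. The times did not overlap, although KN5585 replicate 2 at 6 HAI lay close to *ereb92* replicate 3 at 0 HAI, and the log2 fold change was 4.17 ± 0.68 (edgeR adjusted p = 0.0203). It was 1 of 4 ABA 8'-hydroxylase genes tested. Abscisic acid receptor PYL5 (Zm00001d038436) rose with 5.47 ± 1.16 as 1 of 9 receptor genes, and its KN5585 libraries overlapped between the times, with 0 to 1.25 FPKM at 0 HAI and 1.06 to 3.80 FPKM at 6 HAI. These were 2 rises among 33 ABA genes with a median of 0.05. Of 102 protein phosphatase 2C genes, a family that includes brakes on ABA signalling, 2 rose, namely Zm00001d028752 with 2.97 ± 0.58 and umc86a (Zm00001d034655) with 3.73 ± 0.78, and the median was -0.04.

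The regulators GRAS-transcription factor 72 (Zm00001d048602), 52 (Zm00001d002573) and 49 (Zm00001d006551), rose with 3.84 ± 0.57, 3.30 ± 0.63 and 1.95 ± 0.41. The GRAS family holds the DELLA repressors of gibberellin signalling and many unrelated regulators, and these 3 were the only rises among the 72 genes of the gibberellin list, so that no gene of gibberellin synthesis or breakdown was called. The 48 GRAS genes tested had a median of 0.72 and 38 estimates above 0, and the whole gibberellin list had a median of 0.53. In that list 12 of the 72 genes rose at least 2-fold at an unadjusted edgeR p under 0.05, against 5.06% of all genes tested. In the jasmonate list 2 of 56 genes rose. Tassel seed2 (Zm00001d028806), a short-chain dehydrogenase that maize needs for sex determination of its florets, stood at 0, 0.0522 and 0 FPKM in KN5585 and 0.189, 0 and 0.303 FPKM in *ereb92* at 0 HAI, and at 1.05, 1.02 and 0.768 FPKM and 7.75, 4.62 and 2.58 FPKM at 6 HAI. Its change was about equal in the genotypes, with 5.14 in KN5585 and 4.82 in *ereb92*, and the additive value was 4.92 ± 0.73 (edgeR adjusted p = 0.0142). The other, ZIM-transcription factor 7 (Zm00001d013855), a repressor of jasmonate responses, rose with 3.54 ± 0.75. Among 93 auxin genes 2 rose, ARF-transcription factor 10 (Zm00001d042267) with 1.22 ± 0.21 and the SAUR gene SAUR56 (Zm00001d032475) with 2.89 ± 0.59. None of 33 ethylene genes and none of 14 brassinosteroid genes was called by edgeR. Of them, 7 and 4 rose at least 2-fold at an unadjusted edgeR p under 0.05, which 5.06% of all genes tested did.

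Transcription factors supplied some of the highest levels. AP2-EREBP-transcription factor 115 (Zm00001d021208) stood at 2.28, 21.9 and 9.30 FPKM in KN5585 and at 15.5, 14.1 and 5.49 FPKM in *ereb92* at 0 HAI. It stood at 34.2, 20.4 and 201.4 FPKM in KN5585 and at 2026, 1283 and 757.6 FPKM in *ereb92* at 6 HAI, with 1 KN5585 library below the highest library at 0 HAI and a log2 fold change of 4.88 ± 0.99 (edgeR adjusted p = 0.0443). AP2-EREBP-transcription factor 172 (Zm00001d031796) rose with 4.83 ± 1.02, and in KN5585 at 6 HAI it stood at 8.33, 21.6 and 248.2 FPKM, so that replicate 3 carried its rise there. With AP2-EREBP-transcription factors 90 (Zm00001d018305) and 22 (Zm00001d010048), which rose by 1.41 ± 0.27 and 1.94 ± 0.38, there were 4 rises among 124 AP2/ERF genes, whose median was 0.60 (0.12 in KN5585 and 1.02 in *ereb92*). DRE-binding protein3 (Zm00001d006169), another AP2/ERF gene, was called by the additive model but had an estimate of 0 in KN5585, and it and an assembled transcript on chromosome 1 (174572834 to 174579352, B73 RefGen_v4) are the 2 additive calls that were left out of the shared response.

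LBD-transcription factor 33 (Zm00001d038717), of the lateral organ boundaries domain family, stood at 4.09, 2.78 and 1.99 FPKM in KN5585 and 1.35, 5.08 and 3.22 FPKM in *ereb92* at 0 HAI. It reached 12.8, 15.5 and 48.1 FPKM in KN5585 and 993.8, 635.5 and 218.8 FPKM in *ereb92* at 6 HAI. The times did not overlap, and the log2 fold change was 5.38 ± 0.95 (edgeR adjusted p = 0.0268), in a family of 12 tested genes whose median was -0.07. WRKY-transcription factors 115 (Zm00001d012482) and 92 (Zm00001d010399) rose with 5.86 ± 0.99 and 2.30 ± 0.49 among 82 WRKY genes with a median of 0.50. NAC-transcription factors 4 (Zm00001d019207) and 77 (Zm00001d049540) rose with 4.36 ± 0.71 and 1.41 ± 0.27 among 62 with a median of 0.28, and MYB-related-transcription factor 105 (Zm00001d003496) with 3.43 ± 0.63 as the only one of 162 MYB genes. That was 0.617% of the MYB genes, near the 0.688% of all genes tested that were shared rises. Heat shock transcription factor2 (Zm00001d012749) and HSF-transcription factor 6 (Zm00001d016674) rose with 1.69 ± 0.31 and 2.88 ± 0.54, whereas the list of 110 heat shock proteins and heat stress factors had a median of -0.19, so that the 2 called genes are regulators and no chaperone was called.

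Levels were highest for Zm00001d027988, a gene without a description. It stood at 273.8, 105.8 and 105.5 FPKM in KN5585 and 70.1, 227.2 and 114.4 FPKM in *ereb92* at 0 HAI, and at 149.8, 417.0 and 1671 FPKM in KN5585 and 3005, 1599 and 2180 FPKM in *ereb92* at 6 HAI. KN5585 replicate 1 at 6 HAI lay within the range at 0 HAI, and the log2 fold change was 3.11 ± 0.61 (edgeR adjusted p = 0.039). The EF-hand Ca2+-binding protein CCD1 (Zm00001d014491) rose from a mean of 23.3 to 666.1 FPKM with a log2 fold change of 4.27 ± 0.79, and Zm00001d001766, also undescribed, from 65.3 to 364.1 FPKM with 2.19 ± 0.42.

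Other metabolic enzymes fell into small groups. Both 3-ketoacyl-CoA synthases called, Zm00001d016438 with 2.57 ± 0.37 and Zm00001d047931 with 2.81 ± 0.57, belong to the elongase of very long chain fatty acids, whose 16 tested genes had a median of 0.85. The neighbouring cytochrome P450 genes Zm00001d006947 and Zm00001d006948 rose with 3.66 ± 0.67 and 3.06 ± 0.64. A ferredoxin-nitrite reductase (Zm00001d052164) rose with 7.24 ± 1.19, with 0.0988 to 3.42 FPKM in KN5585 and 6.35 to 24.2 FPKM in *ereb92* at 6 HAI, and it overlaps nitrite reductase2 (Zm00001d052165) on the same strand, so that the counts of the 2 are uncertain. Siroheme uroporphyrinogen methyltransferase1 (Zm00001d044138), which makes the cofactor of nitrite reductase, rose with 2.33 ± 0.48. Of 112 UDP-glycosyltransferases 2 rose, UDP-glycosyltransferase 88A1 (Zm00001d043752) with 3.93 ± 0.58 and nearly equal changes of 3.81 and 4.02 in the genotypes, and benzoxazinone synthesis9 (Zm00001d031209), which adds glucose to the benzoxazinoid defence compounds of maize, with 2.11 ± 0.44. Probable choline kinase 2 (Zm00001d043652), which phosphorylates choline, rose with 3.52 ± 0.75. Bax inhibitor-1 family protein (Zm00001d034431), of a family that restrains cell death, rose with 4.55 ± 0.78, and the Octicosapeptide/Phox/Bem1p family protein Zm00001d051939 with 4.19 ± 0.73.

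The mitochondrial genome gave 7 rises among its 42 protein genes tested. All 7 had the larger estimate in KN5585, as 6 of the other 169 rises did. They encode subunits of ATP synthase (atp4) and cytochrome c oxidase (cox3), ribosomal proteins (rps1, rps3), factors of cytochrome c maturation (ccmC, ccmFN) and an open reading frame (orf99-d). The transcript of ccmC stood at 1.17, 2.62 and 2.54 FPKM in KN5585 and 2.62, 3.28 and 4.64 FPKM in *ereb92* at 0 HAI, and at 19.4, 22.7 and 17.3 FPKM in KN5585 and 5.47, 17.9 and 13.9 FPKM in *ereb92* at 6 HAI. The times did not overlap, *ereb92* replicate 1 was the lowest at 6 HAI, and the log2 fold change was 2.49 ± 0.40 (edgeR adjusted p = 0.019). Transcripts of cox3, rps1, orf99-d, atp4, ccmFN and rps3 rose with 2.44 ± 0.43, 3.0 ± 0.54, 3.36 ± 0.61, 2.59 ± 0.47, 2.44 ± 0.46 and 2.89 ± 0.60.

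Over all 42 mitochondrial protein genes the median log2 fold change was 1.69 (2.46 in KN5585 and 1.08 in *ereb92*), and 40 estimates were above 0. Among these genes 27 rose at least 2-fold at an unadjusted edgeR p under 0.05, which 5.06% of all genes tested did. The 42 genes together took 0.0139 to 0.0301% of the counts in KN5585 at 0 HAI and 0.0772 to 0.143% at 6 HAI, with no overlap, and 0.0346 to 0.0530% and 0.0269 to 0.0953% in *ereb92*, where the times overlapped. All mitochondrial features of the table, those for ribosomal and transfer RNA included, took 0.342%, 0.0474% and 0.0318% of the counts in KN5585 at 0 HAI and 1.67%, 0.209% and 0.111% at 6 HAI. In *ereb92* they took 0.0477%, 0.0682% and 0.0624% at 0 HAI and 0.619%, 0.381% and 0.117% at 6 HAI. Plant mitochondrial transcripts are mostly not polyadenylated and the libraries were selected for poly(A), and the part that carry-over of such RNA had in these values was not tested. No nuclear gene of the respiratory chain was called among 111 by edgeR, and the median of that list was -0.19. In it 3 genes rose and 1 fell at least 2-fold at an unadjusted p under 0.05, against 5.06% and 0.966% of all genes tested.

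**Figure D5:**
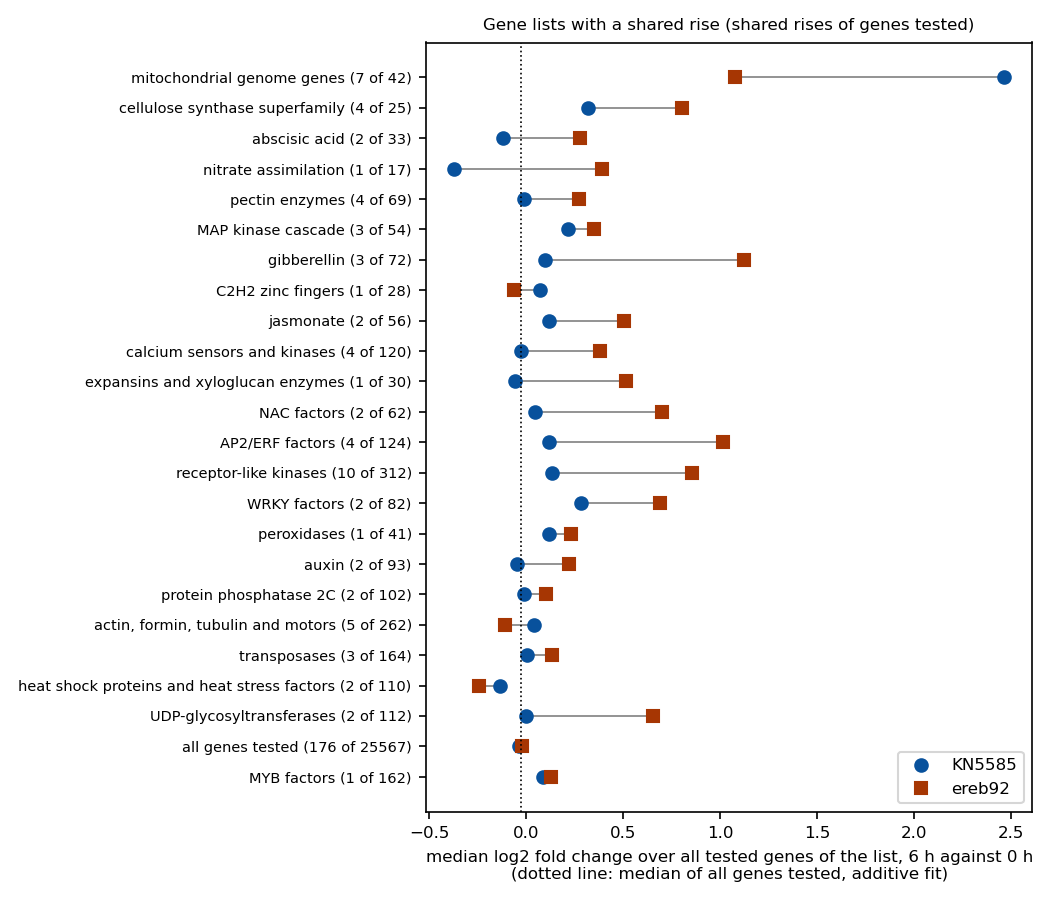
Median log2 fold change at 6 against 0 HAI over all tested genes of each list that holds a shared rise, in KN5585 (blue circles) and in *ereb92* (brown squares), with the shared rises and the genes tested in brackets and lists ordered by their ratio. The mitochondrial genome is the list with the highest median in KN5585, 2.46, and the dotted line marks the median of all genes in the additive model, -0.03.

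In all, 23 of 47 gene lists held a rise, none held a fall, and 68 of the 183 members were in a list. Among lists with a rise, the share of rises ran from 0.617% (MYB) to 16.7% (mitochondrial genome), against 0.688% of all genes tested. No list was tested as a set. Lists of the stored seed programme and of basic cell functions held no called gene by edgeR. Cytosolic ribosomal proteins had a median of -0.25 over 262 genes, with 1 rise and 5 falls of at least 2-fold at an unadjusted p under 0.05. Of all genes tested, 5.06% rose and 0.966% fell at that limit. The median was -0.27 over 31 LEA proteins and dehydrins, which protect dry tissue, with no rise or fall at an unadjusted p, -0.42 over 11 oil body genes with none, and -1.14 over 25 seed storage protein genes, with 3 falls at an unadjusted p. These 25 genes together took 2.15 to 2.61% of the counts in KN5585 at 0 HAI and 2.57 to 6.88% at 6 HAI. In *ereb92* they took 1.48 to 6.73% and 1.48 to 5.00%, so the median does not describe their summed share. Starchy endosperm markers, which share genes with the storage list, had a median of -1.14 with none of 27 estimates above 0, and their summed level was 261.7 to 997.7 FPKM in KN5585 and 116.7 to 207.4 FPKM in *ereb92* at 0 HAI, against 93.4 to 213.2 FPKM and 64.1 to 174.5 FPKM at 6 HAI. Embryo markers had a median of -0.54 and summed to 97852 to 152275 FPKM in KN5585 and 72122 to 164680 FPKM in *ereb92* at 0 HAI, against 72542 to 121424 FPKM and 43593 to 91760 FPKM at 6 HAI. As a share of the counts, embryo markers took 7.13 to 7.75% in KN5585 at 0 HAI and 7.16 to 9.10% at 6 HAI. In *ereb92* their share was 5.54 to 12.4% and 3.76 to 8.44%, so the lower FPKM sum in KN5585 had no lower share of counts beside it. Aleurone markers had a median of -0.21 over 5 genes tested and summed to 2656 to 11475 FPKM in KN5585 and 1259 to 3624 FPKM in *ereb92* at 0 HAI, against 1439 to 6482 FPKM and 531.8 to 2631 FPKM at 6 HAI. The part of a changed tissue make-up of the RNA in the rises and falls was not tested.

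The 7 falls had a smaller median change than the rises, and 3 of them had no overlap between the 6 libraries of each time, which 0.336% of all genes tested showed. Their median log2 fold change was -1.56, with -1.72 in KN5585 and -1.40 in *ereb92*, and 4 were at least 2-fold down in each genotype, against 1.24% of all genes tested. The rule had drawn on the same contrast, so nothing is read from these shares. Zm00001d016128 (chromosome 5, no description) had the highest level, with 764.1, 479.2 and 483.1 FPKM in KN5585 and 305.5, 415.2 and 509.0 FPKM in *ereb92* at 0 HAI. At 6 HAI it stood at 237.1, 225.0 and 225.6 FPKM in KN5585 and at 232.2, 144.8 and 284.7 FPKM in *ereb92*, with no overlap and a log2 fold change of -1.13 ± 0.22 (edgeR adjusted p = 0.0358).

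Phosphoethanolamine N-methyltransferase 3 (Zm00001d038891, chromosome 6), an enzyme of the route that makes phosphocholine by methylation, was the one fall with a described enzyme. It stood at 25.1, 17.2 and 12.2 FPKM in KN5585 and 15.2, 17.1 and 14.4 FPKM in *ereb92* at 0 HAI, and at 7.27, 6.96 and 4.75 FPKM and 10.2, 10.0 and 8.56 FPKM at 6 HAI. Every library at 6 HAI lay below every library at 0 HAI, and the log2 fold change was -1.12 ± 0.22 (edgeR adjusted p = 0.0358). Zm00001d047272, annotated only as an expressed protein, changed by -1.38 ± 0.29. The other 4 falls were transcripts assembled by the submitters, given here by their positions on B73 RefGen_v4. One with a Ras family domain (chromosome 1, 73768127 to 73769421) changed by -1.81 ± 0.37, one on chromosome 5 (52964603 to 52968854) by -1.56 ± 0.32, and of the pair on chromosome 7 the one at 50651150 to 50663699 by -1.89 ± 0.33 and the one at 54544778 to 54629325 by -6.37 ± 0.75. In KN5585 the last of these had 1 count in replicate 2 at 0 HAI and none in the other 5 libraries, while in *ereb92* it went from 12.6, 10.1 and 7.72 FPKM to 0.168, 0 and 0.166 FPKM, so its fall was measured in *ereb92* alone. Within *ereb92*, 2 of the 7 falls passed the adjusted edgeR test, which 0.0352% of all genes did as falls.

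Just inside the fold limit lay the rises of F-box protein FBX14 (Zm00001d052188), translocase of chloroplast 159 (Zm00001d012893) and a kinase with an octicosapeptide domain (Zm00001d046569), with log2 fold changes of 1.02, 1.04 and 1.10. Just outside it, with an adjusted p under 0.05, lay protein phosphatase 2C 48 (Zm00001d048359) and the alpha/beta-hydrolases Zm00001d037354 and Zm00001d032111, with 0.97, 0.96 and 0.92. Among decreases, an FKBP-type isomerase (Zm00001d025522), a rhodopsin-like receptor (Zm00001d003912) and clathrin light chain 2 (Zm00001d001814) lay outside the limit with -0.83, -0.80 and -0.64.

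The members lay on all 10 chromosomes, with 30 on chromosome 5, 26 on chromosome 1 and 5 on chromosome 10. A member lay within 200000 bases of another in 30 cases, in 11 clusters. The 7 members of the mitochondrial genome are among these cases and form a cluster of their own. No share of all genes tested is set beside these counts, so nothing is read from them. The largest nuclear cluster was on chromosome 5 between 211161703 and 211552138 (B73 RefGen_v4), where 5 of 13 genes tested rose: histidine kinase1 (Zm00001d017977), Endoglucanase 1, formin homologue 4, the galacturonosyltransferase-like 9 gene Zm00001d017984 and the undescribed Zm00001d017991. Their log2 fold changes were 1.94, 3.95, 2.63, 3.75 and 2.70, and the 8 genes between them that were not called had estimates of -0.85 to 0.94. Another gene of the table overlaps 15 of the members, and without stated use of strand in the counting those reads cannot be told apart.

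The 9 members called in each of the 12 fits that left out a library were CML38, MDIS1-interacting receptor like kinase 2, ABC transporter G family member 40, the putative cellulose synthase-like gene Zm00001d049510, RHOMBOID-like protein 3 (Zm00001d027355), an intramembrane protease homologue, and the undescribed Zm00001d000849, Zm00001d020042 and assembled transcripts on chromosome 7 (135155682 to 135156598) and chromosome 9 (135615940 to 135617155). Of these, Zm00001d049510 had no count in KN5585 at 0 HAI and 0, 4 and 1 counts there at 6 HAI. Its rise was measured almost only in *ereb92*, so its calls in the 12 fits do not show a shared change. RHOMBOID-like protein 3 stood at 20.4, 28.3 and 19.5 FPKM in KN5585 and 18.3, 24.6 and 22.1 FPKM in *ereb92* at 0 HAI. At 6 HAI it stood at 58.8, 47.5 and 41.9 FPKM in KN5585 and 105.4, 94.1 and 98.6 FPKM in *ereb92*. In *ereb92* the spread within each group was small beside the difference between the times, while in KN5585 the spread was wider, though the times did not overlap. The log2 fold change was 1.64 ± 0.22 (edgeR adjusted p = 0.00731). The assembled transcript on chromosome 9 rose about equally in KN5585 and *ereb92*, with 2.57 and 2.95, and with 2.76 ± 0.36 in the additive model.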

How the data were processed

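Poly(A) RNA of whole seeds was sequenced in 12 libraries, and the 3 libraries of each group are replicates. The deposited counts are whole numbers of reads per gene: per the methods, the authors aligned to the maize genome B73 RefGen_v4 with Hisat2 and counted with featureCounts. The deposited FPKM values are those counts per gene length and library size, made by the authors, and were used only to print levels. The 20 columns of the authors' own 4 comparisons (group means, fold changes and p-values) were not used. The build field of the labels names a mouse genome, which was not used.

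Counts were tested in R 4.3.3 with edgeR 4.0.16 (filterByExpr over the 4 groups, TMM factors, quasi-likelihood F-test, Benjamini-Hochberg over 25567 genes). The main model had genotype and time as additive terms, and changes within a genotype and the interaction came from a 4-group model. A call needed an adjusted p under 0.05 and a log2 fold change of at least 1 in size. SE values are the log2 fold change divided by the root of F. Genes in the text are the 15 largest non-overlapping changes with a description and at least 1 FPKM and the 5 highest levels per direction, up to 4 per gene list, and 3 on each side of the fold limit; genes beside these were chosen after their values were seen. Members and lists were chosen with earlier results of these data known. On simulated data with these library sizes and a dispersion of 0.3, the additive test recovered 4% of 2-fold, 58% of 4-fold and 100% of 8-fold changes among 24776 genes. Alternatives were RLE, upper-quartile and library-size scaling, other filters, a replicate block, DESeq2 1.42.0 and limma 3.58.1 (voom).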

Additional observations from a re-analysis of the deposited data

How the results depend on the processing

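The numbers of additive rises and falls, shared rises and falls, and those at least 2-fold in each genotype moved with several choices, for causes that were not tested. Leaving out 1 library gave 9 to 584, 1 to 22, 9 to 579, 1 to 22, 9 to 435 and 1 to 15 genes, with 0 to 5 rises and 0 falls that passed in both genotypes and 0 to 4 members with an interaction. Library size alone gave 369, 4, 366, 4, 263 and 4 genes, with 4 rises passing in both, and moved the median log2 fold change of all genes from -0.03 to 0.10. Keeping every gene with a count gave 401, 23, 392, 22, 290 and 14 with 13 rises passing in both and 31 interactions, and at least 10 counts in every sample gave 8 interactions. The average of the contrasts within genotypes gave 533, 23, 514, 23, 285 and 12. DESeq2 gave 811, 65, 806, 65, 474 and 46, with 51 rises passing in both and 153 interactions, and shared 175 of the rises. With limma voom there were 359 additive and 338 shared rises and 13 falls, with glmTreat against 1.2-fold 112 and 110 rises and 2 falls, 2 of them 2-fold in each genotype, and with no fold limit 11 falls. Unadjusted p gave 1294, 247, 1242, 244, 674 and 136, with 247 rises and 15 falls passing in both and 519 interactions. Deviations of same-numbered libraries correlated with r of -0.26 to 0.20 in KN5585, where the numbers did not pair the libraries, and of 0.24 to 0.37 in *ereb92*, where each library correlated best with its own number. A replicate block of 6 pairs left 4 additive and 4 shared rises, 4 of them 2-fold in each genotype, and 0 falls, and a replicate block of 3 numbers 14 rises and 1 fall on each count, with 1 rise passing in both. All 183 members kept their sign under every alternative in which they were tested. They were chosen on these same libraries, so this describes them and tests nothing. Of 2126 refits of 83 named genes, 1451 kept their sign and side of the threshold, 657 no longer passed, 17 newly passed and 1 changed sign, that of the reference gene Zm00001d009870, which ran from -0.016 without KN5585 replicate 3 at 6 HAI to 0.085 when 1 library was left out. At these depths a level under 3 counts cannot be told from 0.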
